A study of Mus musculus with 62 samples.

Results

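The heat shock proteins and J-domain co-chaperones described here are 69 of the 47643 gene symbols in a table of transcript levels from mouse gastrocnemius, a calf muscle of mixed but mainly fast fibres. They are the symbols that start with Hspa, Hspb, Hspd, Hspe or Hsph, and those that start with Dnaja, Dnajb or Dnajc followed by a digit, without Hspa5, Dnajb9 and the symbols of pseudogenes that end in -ps. The rule works on names alone, so it leaves out the Hsp90 genes and Cryab, and it takes in Hspbp1, Hspbap1 and Hspb11, which are no chaperones of these families. Of the 69 genes, 60 reached 1 TPM, a unit that gives each gene its share of the transcripts of a library with transcript length taken into account, in at least 5 of the 62 libraries and were tested. The other 9, Dnajb13, Dnajb3, Dnajb7, Dnajb8, Dnajc22, Dnajc5b, Dnajc5g, Dnajc6 and Hspb9, were under 1 TPM in every library, with a highest value of 0.484 TPM in Dnajc6.

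The libraries came from female mice, given in the labels as 2 months old, in 3 arms sampled at 2, 4, 6 and 8 weeks after injection. CAC mice had received melanoma cells called cachectic, NCAC mice had received melanoma cells called non-cachectic, and Con mice had been mock injected. CAC at 8 weeks held 7 libraries and each of the other 11 groups held 5, described in the labels as biological replicates. The design text names NCI Ath/nude mice, a line that lacks a thymus and most T cells, while the sample labels name C57BL6/J. The conflict is the same in all groups, and no other allele or agent is given. The labels do not say more about the melanoma cells, so the cells that were injected and the cachexia they are named for cannot be told apart. Nothing ties a library to 1 animal, so the p-values measure the spread between these libraries.

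Heat shock proteins are molecular chaperones that bind unfolded proteins. Hsp70 chaperones work in cycles of ATP hydrolysis that J-domain proteins start and nucleotide exchange factors reset, small heat shock proteins hold unfolding proteins without ATP, and Hsp60 with Hsp10 folds proteins inside mitochondria. In skeletal muscle several small heat shock proteins are bound to the Z-disc and to filaments, and heat shock factor 1 (Hsf1) activates many of these genes through inverted repeats of a short motif, the heat shock element.

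Fast fibre genes such as Acta1 and Ckm were abundant in every library, and the melanocyte gene Tyr was listed at 0 in 57 of the 62 libraries. The table holds no counts. The step between the lowest values, taken with exon lengths from GENCODE M21, gave an estimate of 39582237 to 48297064 reads per library, with 77.8% to 79.6% of the values of 1 to 20 reads within 0.02 of a whole read. TPM values are shares of 1 library, and transcripts of the mitochondrial genome held a smaller share in late CAC libraries, 24.2% ± 3.53 at 8 weeks, against 32.2% ± 3.08 in NCAC and 33.5% ± 3.02 in Con libraries (SD, n = 7, 5 and 5). The median of all 12364 tested genes was 0.36 higher on the log2(TPM + 1) scale in CAC than in Con at 8 weeks. For that reason many results, though not all, are also given after rescaling. There, every library was divided by its median ratio to the geometric mean of all libraries. Rescaling brings the median of all genes to between 0.00 and 0.01 in CAC against Con in each week. A change given without a rescaled value is on the deposited scale only. In whole muscle, fewer cells of a type and less RNA per cell cannot be told apart.

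Heat shock elements were looked up in promoter sequences because they are the best known shared control sequence of the genes. RefSeq promoters of build GRCm38.p6, which run from 250 bases before to 50 bases after the annotated start, were matched for 57 of the 69 genes, all but Dnajc11, Dnajc12, Dnajc18, Dnajc2, Dnajc22, Dnajc30, Dnajc5, Dnajc5b, Hspa13, Hspa8, Hspa9 and Hspb2. A run of 3 inverted units, GAANNTTCNNGAA or TTCNNGAANNTTC on either strand, lay in the promoters of 4 of these 57 (7.02%), against 179 of 27025 genes in the RefSeq table (0.662%). The 4 genes were Hspd1, Hspe1, Hsph1 and Dnajb6. Hspd1, the Hsp60 of mitochondria, and Hspe1, its Hsp10 lid, start from opposite strands of 1 shared stretch, so they hold the same matches. The promoter of Hspe1 is chr1:55087898-55088197 on the plus strand, that of Dnajb6, a cytosolic J protein of the Z-disc, is chr5:29735648-29735947 on the plus strand, and that of Hsph1, an Hsp110 that exchanges nucleotide on Hsp70, is chr5:149636287-149636586 on the minus strand. They are shown 5′ to 3′ with the bases of the matches in capitals, and the matches of Hspe1 overlap each other.
Hspe1: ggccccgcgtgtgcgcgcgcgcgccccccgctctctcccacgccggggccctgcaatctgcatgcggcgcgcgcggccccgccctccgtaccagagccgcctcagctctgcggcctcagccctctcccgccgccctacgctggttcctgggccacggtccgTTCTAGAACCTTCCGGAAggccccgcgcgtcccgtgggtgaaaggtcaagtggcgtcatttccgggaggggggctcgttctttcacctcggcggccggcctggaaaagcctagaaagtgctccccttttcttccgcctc
Dnajb6: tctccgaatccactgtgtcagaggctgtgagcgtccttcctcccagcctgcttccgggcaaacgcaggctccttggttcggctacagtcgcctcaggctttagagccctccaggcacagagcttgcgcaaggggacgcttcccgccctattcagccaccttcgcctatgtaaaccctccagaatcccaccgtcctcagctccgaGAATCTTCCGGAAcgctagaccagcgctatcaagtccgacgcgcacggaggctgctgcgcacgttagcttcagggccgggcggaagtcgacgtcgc
Hsph1: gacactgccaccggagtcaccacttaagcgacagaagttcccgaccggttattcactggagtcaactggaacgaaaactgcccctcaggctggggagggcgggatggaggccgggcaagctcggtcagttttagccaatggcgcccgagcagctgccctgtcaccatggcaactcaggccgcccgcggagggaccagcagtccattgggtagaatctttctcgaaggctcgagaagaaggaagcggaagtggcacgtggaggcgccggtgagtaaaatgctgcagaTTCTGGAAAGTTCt
A shorter run of 2 units, GAANNTTC or TTCNNGAA, lay in 16 of the 57 promoters (28.1%) and in 17.0% of genes in the table. At 8 weeks, when 70.8% of all genes passed the test described further on in CAC against Con, 3 of the 4 genes with 3 units rose and their log2 changes had a median of 0.31 and a highest value of 0.55, while the median was 0.37 in the 46 other tested members with a promoter, of which 30 rose and 2 fell. After rescaling, 0 of the 4 rose and 1 fell, while 21.8% of all genes rose and 22.9% fell. Hspa1a, Hspa1b, Hspb1 and Dnajb1 held no exact match of 3 units in this window, so they are among the 46 other members. A match is a description of the letters and says nothing of binding.

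Chaperone transcripts rose late in muscle of mice with the cachectic tumour, in numbers close to those of other genes. Against Con, 1 of 60 members rose at 2 weeks, 9 rose and 1 fell at 4 weeks, 34 rose and 2 fell at 6 weeks, and 38 rose and 2 fell at 8 weeks (limma on log2(TPM + 1), two-sided, Benjamini-Hochberg adjusted p under 0.05 over all genes tested). Of the members, 1.67%, 16.7%, 60% and 66.7% passed in those 4 weeks, against 0.283%, 25.3%, 57.2% and 70.8% of all genes tested. Taken by direction, 0.267%, 23%, 51.8% and 65.3% of all genes rose, and 0.0162%, 2.38%, 5.41% and 5.55% fell. The median log2 change of the members was 0.06, 0.12, 0.26 and 0.31, and that of all genes was 0.09, 0.17, 0.28 and 0.36. After rescaling, more members fell than rose from 4 weeks on: 1 member rose at 2 weeks, 3 rose and 6 fell at 4 weeks, 5 rose and 12 fell at 6 weeks, and 11 rose and 18 fell at 8 weeks. The shares of all genes that passed after rescaling were 0.245%, 14.9%, 31.4% and 44.7%. Taken by direction, 0.196%, 7.64%, 14.2% and 21.8% of all genes rose after rescaling and 0.0491%, 7.28%, 17.2% and 22.9% fell. The 11 members that rose on both scales at 8 weeks were Hspa1a, Hspa2, Hspb1, Hspb7, Dnajc1, Dnajc2, Dnajc5, Dnajc8, Dnajc10, Dnajc13 and Dnajc25. Together the 69 members held 4836 ± 558 TPM in CAC, 3797 ± 368 TPM in NCAC and 3617 ± 320.2 TPM in Con (SD, n = 7, 5 and 5) at 8 weeks.

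Against the non-cachectic tumour, 1 member was higher in CAC at 2 weeks, 8 were higher and 1 lower at 4 weeks, 33 were higher and 1 lower at 6 weeks, and 36 were higher and 2 lower at 8 weeks. The shares of all genes that passed were 1.17%, 19.7%, 68.7% and 72.3%, made up of 1.16%, 18.1%, 64.1% and 67.5% that were higher and 0.0162%, 1.59%, 4.64% and 4.8% that were lower in CAC. After rescaling, 1 member was higher at 2 weeks, 2 were higher and 4 lower at 4 weeks, 7 and 17 at 6 weeks, and 9 and 21 at 8 weeks, where 0.482%, 7.82%, 41.2% and 44.4% of all genes passed. Of all genes, 0.368%, 2.98%, 19.1% and 21.4% were higher and 0.114%, 4.85%, 22% and 23.1% were lower on that scale. Both comparisons use the same CAC libraries. At 8 weeks, 35 members rose and 2 fell against Con and NCAC alike, and 30 rose against both at 6 weeks. The matching count of all genes against both was not taken. Of all genes, 65.3% rose against Con and 67.5% against NCAC at 8 weeks, and 51.8% and 64.1% at 6 weeks. At 8 weeks 5.55% fell against Con and 4.8% against NCAC.

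**Figure D1:**
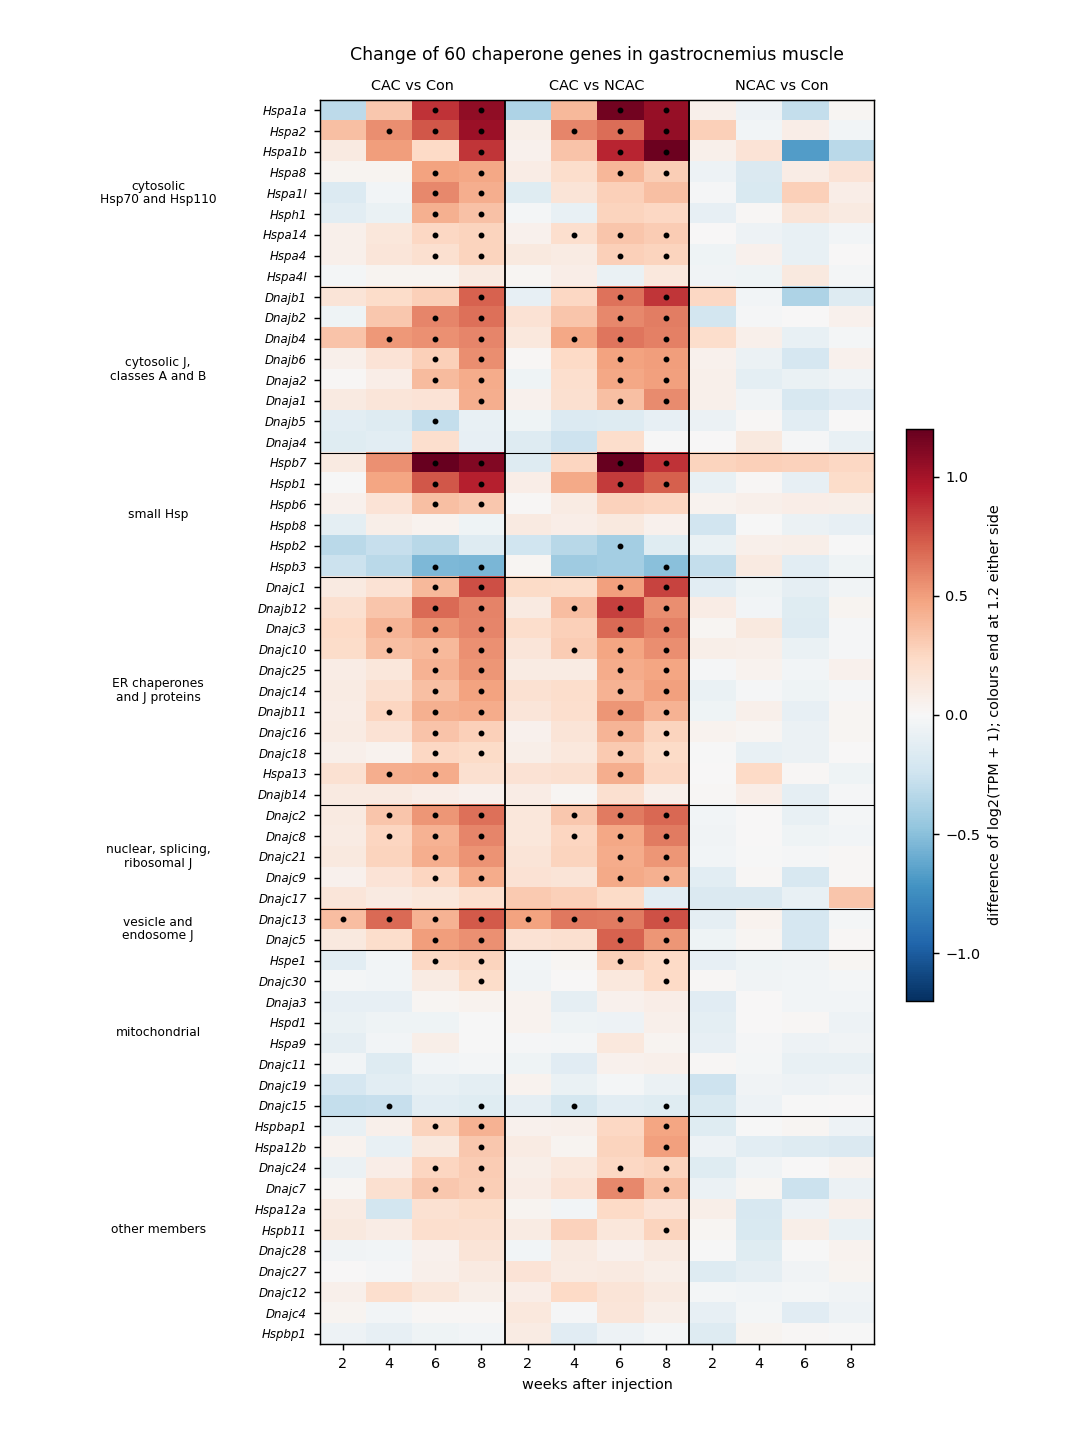
Differences in log2(TPM + 1) of the 60 tested members, in lines grouped by role, for CAC minus Con, CAC minus NCAC and NCAC minus Con at 2, 4, 6 and 8 weeks; red is higher and blue is lower in the first-named group, and a dot marks an adjusted p under 0.05 in limma. The dots gather in the CAC columns of 6 and 8 weeks, and the NCAC minus Con columns hold none.

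At 4 weeks 1 CAC library stood apart. CAC replicate 2 at 4 weeks had a score of 57.2 on the first principal component of all genes, which held 49.1% of the variance, while the other CAC libraries of that week lay between -1.29 and 15.6. Without that library, 3 members passed the test in CAC against Con at 4 weeks instead of 10, and 2 instead of 9 in CAC against NCAC. Without CAC replicate 1 the counts were 16 against Con and 14 against NCAC. The count against NCAC at 4 weeks was also 2 without NCAC replicate 3, 4 without NCAC replicate 1, 4 or 5, and 5 without CAC replicate 4. Leaving out single libraries gave 24 to 36 members at 6 weeks and 34 to 41 at 8 weeks against Con.

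Markers of several other cell types differed between the arms at 8 weeks as well. Their counts stand beside 65.3% of all genes that rose and 5.55% that fell against Con in that week. After rescaling, 21.8% of all genes rose and 22.9% fell. All 8 of the listed macrophage genes rose in CAC against Con at 8 weeks, with a median log2 change of 1.68, and their summed level was 165 to 586 TPM in CAC, against 21.1 to 90.2 TPM in NCAC and 47.6 to 177 TPM in Con libraries. Of 5 endothelial markers, 4 rose and 1 fell, with sums of 121 to 194 TPM in CAC, 81.3 to 104 TPM in NCAC and 70.7 to 111 TPM in Con. Of 9 fast fibre genes, 2 rose and 3 fell. The summed lymphocyte markers were lower, with 4.32 to 49.3 TPM in CAC, 73.2 to 234 TPM in NCAC and 56.4 to 114 TPM in Con, and Ighm, the 1 of these 5 genes with levels high enough to be tested, fell by 3.16 on the log2 scale. Summed fibroblast markers were 446 to 1067 TPM in CAC, 259 to 544 TPM in NCAC and 305 to 457 TPM in Con, and 2 of 5 rose. Adipocyte markers summed to 507 to 1402 TPM in CAC, 363 to 621 TPM in NCAC and 367 to 724 TPM in Con, and 1 of 4 rose. Neutrophil markers summed to 4.67 to 26.2 TPM in CAC, 1.97 to 9.14 TPM in NCAC and 2.08 to 7.90 TPM in Con, where 3 of the 4 tested genes rose. Smooth muscle markers summed to 86.9 to 299 TPM in CAC, 46.0 to 70.6 TPM in NCAC and 54.1 to 83.8 TPM in Con, and 3 of 4 rose too. Medians of the smooth muscle sum at 2, 4, 6 and 8 weeks were 141, 165, 69.8 and 62.2 TPM in Con. In CAC they were 119, 98.3, 139 and 119 TPM. Of the slow fibre genes 3 of 8 rose and of the Schwann cell genes 1 of 4, and no tested gene of the satellite cell, melanoma and red blood cell lists passed. The red blood cell genes summed to at most 12723 TPM in CAC, 1291 TPM in NCAC and 1347 TPM in Con, with medians of 906, 875 and 925 TPM. After rescaling 6 of the macrophage genes rose, 1 endothelial gene rose and 1 fell, and 6 fast fibre genes fell. The part of these cells, and of the mitochondrial share, in the chaperone changes was not tested.

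Of the 9 cytosolic Hsp70 and Hsp110 chaperones, none passed against Con at 2 weeks, 1 rose at 4 weeks, 7 at 6 weeks and 8 at 8 weeks, while 51.8% and 65.3% of all genes rose in the last 2 of these weeks. Their median log2 changes were 0.03, 0.14, 0.43 and 0.44. After rescaling, 2 rose and 1 fell at 8 weeks with a median of 0.04, while 21.8% of all genes rose and 22.9% fell. Against NCAC, 2, 6 and 6 of the 9 were higher at 4, 6 and 8 weeks, beside 18.1%, 64.1% and 67.5% of all genes.

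Hspa1a and Hspa1b encode the stress-inducible Hsp70. They lie on chromosome 17 at 34969190-34972156 and 34956436-34959238 of mm10, both on the minus strand, and 1919 of the 1929 aligned columns of their coding sequence were identical (99.5%), so reads may have been split between them and each is uncertain on its own. Hspa1a had a lowest, median and highest value of 4.17, 10.7 and 26.0 TPM in CAC at 8 weeks, against 6.58, 4.69, 4.70, 3.72 and 4.20 TPM in NCAC and 3.54, 6.00, 7.71, 4.54 and 2.65 TPM in Con. At 6 weeks the values were 7.48, 7.62, 16.5, 12.4 and 7.74 TPM in CAC, 3.52, 5.54, 5.79, 2.55 and 2.80 TPM in NCAC and 4.45, 3.30, 6.87, 4.59 and 6.12 TPM in Con. All 5 CAC libraries of 6 weeks were above all NCAC and Con libraries, and at 8 weeks the lowest CAC library lay among the NCAC and Con libraries. The change against Con at 8 weeks was 2.09-fold on the TPM + 1 scale, a log2 change of 1.06 (SE 0.28, limma adjusted p = 0.000762), and 0.69 after rescaling (adjusted p = 0.0307). At 6 weeks the log2 change was 0.87 (limma adjusted p = 0.0121), it was 0.58 after rescaling (adjusted p = 0.115), and the adjusted p was 0.0518 without CAC replicate 3.

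Hspa1b had a lowest, median and highest value of 6.07, 8.02 and 20.5 TPM in CAC at 8 weeks, 6.07, 3.02, 2.83, 2.65 and 4.19 TPM in NCAC and 2.81, 6.73, 9.09, 3.55 and 3.65 TPM in Con. Here the CAC range overlapped both others. The log2 change was 0.86 against Con (limma adjusted p = 0.00451), 0.49 after rescaling (adjusted p = 0.121), and 1.18 against NCAC (adjusted p = 0.000162). At 6 weeks Hspa1b passed against NCAC, with 0.91 (adjusted p = 0.00541), and missed against Con, with 0.24 (adjusted p = 0.482).

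Hspa2, an Hsp70 best known from the testis, was the member of this role that rose on both scales at 4, 6 and 8 weeks. It lies on chromosome 12 at 76404176-76406938 on the plus strand. In CAC at 8 weeks it had a lowest, median and highest value of 3.86, 7.88 and 9.41 TPM, against 2.61, 2.89, 2.00, 2.88 and 3.15 TPM in NCAC and 2.58, 3.45, 2.85, 2.16 and 2.89 TPM in Con. At 6 weeks it had 6.72, 5.72, 5.39, 6.16 and 5.96 TPM in CAC, 3.52, 4.39, 3.48, 2.64 and 3.12 TPM in NCAC and 3.79, 2.75, 2.36, 3.70 and 3.38 TPM in Con. Every CAC library was above every NCAC and Con library in both weeks. The log2 change against Con was 0.36 at 2 weeks (limma adjusted p = 0.272), 0.56 at 4 weeks (0.0043), 0.75 at 6 weeks (5.80e-05) and 1.03 at 8 weeks (SE 0.13, 1.69e-08). After rescaling the last 3 were 0.40, 0.47 and 0.68. At 2 weeks the NCAC libraries, at 3.24 to 3.77 TPM, also lay above all Con libraries, at 2.05 to 3.14 TPM. That log2 change of 0.28 in NCAC against Con did not pass.

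Hspa8, the constitutive Hsp70 that also uncoats clathrin vesicles, was the most abundant member of this role, with a mean of 425 ± 46.8 TPM over the 20 Con libraries (SD). At 8 weeks it had a lowest, median and highest value of 409.8, 559.7 and 802 TPM in CAC, 357, 443, 419, 411 and 572 TPM in NCAC and 335, 419.5, 445, 373 and 373 TPM in Con, and the CAC range overlapped both others. The log2 change was 0.46 against Con (limma adjusted p = 0.00184) and 0.29 against NCAC (adjusted p = 0.0417). After rescaling the changes were 0.04 and -0.15, so the direction against NCAC was reversed, and the call against NCAC was lost without 8 of the 12 libraries in turn, with an adjusted p of up to 0.160.

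Hsph1, whose promoter is shown above, averaged 14.6 ± 3.22 TPM in CAC at 8 weeks and 11.1 ± 1.83 TPM in Con (SD, n = 7 and 5). Its log2 change of 0.35 (limma adjusted p = 0.0452) was -0.03 after rescaling, and 8 of the 12 refits without a library did not call it. Against NCAC, Hsph1 passed in no week. Hspa4, another Hsp110, rose by 0.26 and fell by 0.15 after rescaling. Hspa1l and Hspa14, Hsp70 forms of the testis and of the ribosome, rose by 0.44 and 0.27 (0.04 and -0.06 after rescaling), while Hspa4l had a change of 0.10 that did not pass. Hspa1l passed against NCAC in no week. Of the Hspa12 branch, distant Hsp70-like ATPases, the endothelial Hspa12b averaged 9.95 ± 1.86 TPM in CAC and 7.68 ± 0.576 TPM in Con at 8 weeks (SD, n = 7 and 5) and rose by 0.32 (limma adjusted p = 0.019), which was -0.06 after rescaling, beside the endothelial markers named above. Its relative Hspa12a had a change of 0.22 that did not pass.

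**Figure D2:**
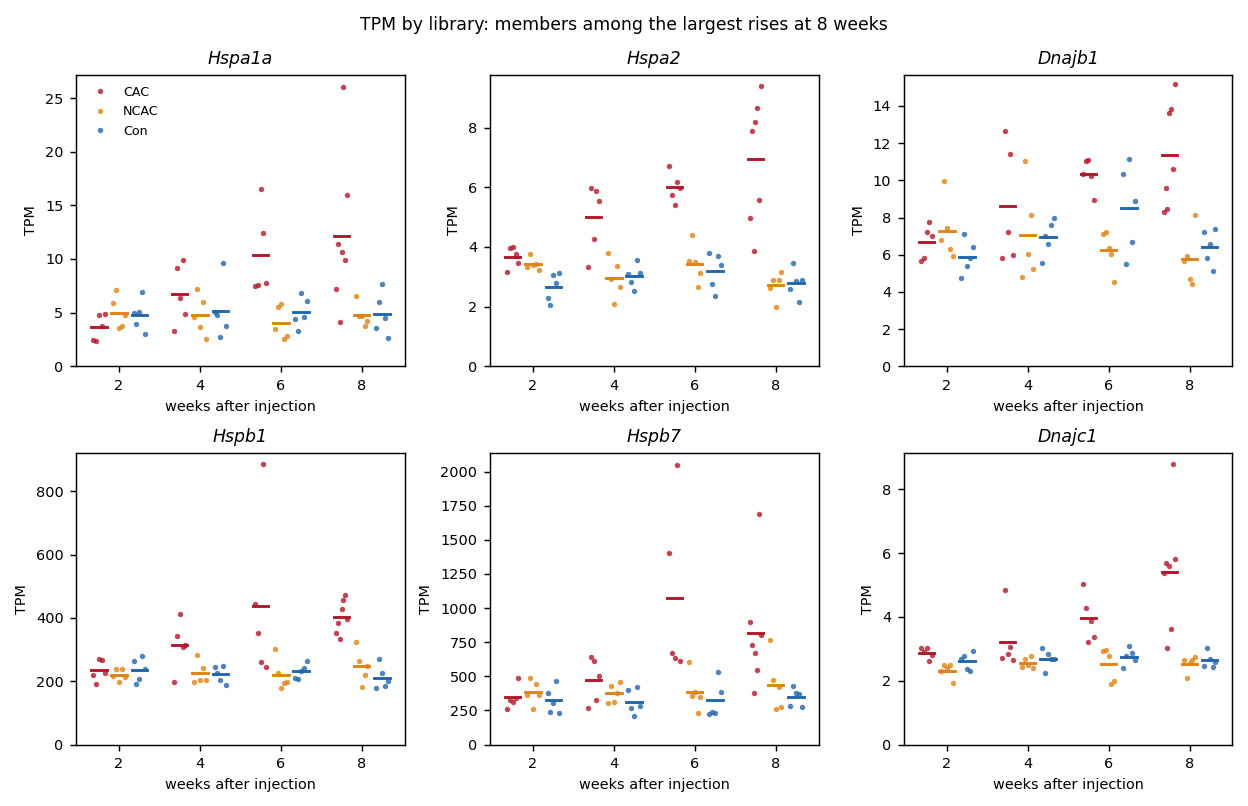
TPM of Hspa1a, Hspa2, Dnajb1, Hspb1, Hspb7 and Dnajc1 in every library, in panels with their own linear axes, by week with CAC left of NCAC and Con; points are libraries and short lines are group means. Every CAC library of 8 weeks lies above every Con library in Hspa2, Dnajb1, Hspb1 and Dnajc1, and the highest Hspb7 value of that group, 1686 TPM, lies well above the others.

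The cytosolic J proteins of classes A and B hand substrates to Hsp70. Of 8, 1 rose at 4 weeks, 4 rose and 1 fell at 6 weeks, and 6 rose at 8 weeks against Con, with median log2 changes of 0.04, 0.16, 0.28 and 0.50 over the 4 weeks. Of all genes, 23%, 51.8% and 65.3% rose at 4, 6 and 8 weeks, and 5.41% fell at 6 weeks. After rescaling none of the 8 rose and 2 fell at 8 weeks, with a median of 0.10, while 21.8% of all genes rose and 22.9% fell. Against NCAC 6 of the 8 were higher at 6 and at 8 weeks, beside 64.1% and 67.5% of all genes.

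Dnajb1, the Hsp40 induced with Hsp70 by heat, is at 83608193-83612653 of chromosome 8, plus strand. It had a lowest, median and highest value of 8.29, 10.6 and 15.2 TPM in CAC at 8 weeks, 5.67, 5.91, 4.67, 4.44 and 8.12 TPM in NCAC and 7.24, 5.85, 6.55, 5.13 and 7.39 TPM in Con, and every CAC library was above all others. The log2 change was 0.71 against Con (SE 0.17, limma adjusted p = 0.000249) and 0.86 against NCAC (adjusted p = 1.86e-05). After rescaling the change against Con was 0.33 (adjusted p = 0.0573). Dnajb2, a J protein with ubiquitin-interacting motifs, had a lowest, median and highest value of 32.4, 42.7 and 63.2 TPM in CAC at 8 weeks and 26.7, 32.3, 31.8, 26.3 and 26.6 TPM in Con. The CAC and Con ranges only just cleared each other, and the log2 change was 0.66 (limma adjusted p = 1.53e-05), or 0.25 after rescaling (adjusted p = 0.0581). An NCAC library of that week had 32.7 TPM, above the lowest CAC library. Dnaja1, a class A partner of Hsp70, had a lowest, median and highest value of 7.19, 8.65 and 16.7 TPM in CAC and 7.48, 7.36, 7.85, 7.30 and 7.28 TPM in Con at 8 weeks, with 3 CAC libraries well above the rest. Its log2 change was 0.43 (limma adjusted p = 0.00839) and 0.05 after rescaling.

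Dnajb4, Dnajb6 and Dnaja2 also rose at 8 weeks, by 0.58, 0.55 and 0.45 on the log2 scale, or 0.18, 0.14 and 0.03 after rescaling, and Dnajb4 was called at 4, 6 and 8 weeks. Dnaja4 and Dnajb5 moved apart from them, with changes of -0.10 and -0.09 that did not pass and -0.51 and -0.51 after rescaling that did. Dnajb5 was the member of this role that fell against Con at 6 weeks, by 0.28.

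The chaperones and J proteins of the endoplasmic reticulum rose in 4 of 11 at 4 weeks, 10 at 6 weeks and 9 at 8 weeks, with median log2 changes of 0.20, 0.39 and 0.48 against Con, beside 23%, 51.8% and 65.3% of all genes that rose. After rescaling 1, 1 and 3 rose and none, none and 2 fell. In the same weeks 7.64%, 14.2% and 21.8% of all genes rose after rescaling and 7.28%, 17.2% and 22.9% fell. The members of this role that rose at 8 weeks after rescaling were Dnajc1, Dnajc10 and Dnajc25. Hspa5, the main Hsp70 of this compartment, and Dnajb9 lie outside the rule and changed by 0.34 and 0.57 at 8 weeks, both of which passed, and by -0.08 and 0.16 after rescaling.

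Dnajc1, a J protein of the endoplasmic reticulum membrane that also binds ribosomes, is at 18195654-18392830 of chromosome 2, minus strand. It had a lowest, median and highest value of 3.04, 5.61 and 8.80 TPM in CAC at 8 weeks, against 2.66, 2.09, 2.55, 2.64 and 2.74 TPM in NCAC and 2.48, 3.02, 2.69, 2.42 and 2.59 TPM in Con. All CAC values were above all others. The log2 change was 0.77 against Con (SE 0.12, limma adjusted p = 4.29e-07), 0.43 after rescaling (adjusted p = 0.00018), and 0.81 against NCAC (adjusted p = 1.59e-07). Dnajc25 had a lowest, median and highest value of 5.03, 6.52 and 8.87 TPM in CAC and 4.02, 4.06, 4.46, 4.51 and 3.71 TPM in Con at 8 weeks, also with no overlap. Its log2 change was 0.53 (limma adjusted p = 1.02e-06), and 0.17 after rescaling (adjusted p = 0.0369). Dnajc10, a reductase of misfolded proteins, and Dnajc3, an inhibitor of the kinase PERK, rose by 0.55 and 0.59, or 0.15 and 0.19 after rescaling. Dnajb11, Dnajc14, Dnajc16 and Dnajc18 rose by 0.44, 0.48, 0.29 and 0.23, or 0.04, 0.09, -0.09 and -0.15 after rescaling.

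Dnajb12, a membrane J protein that helps discard misfolded membrane proteins, was called high at 6 weeks on both scales. It averaged 63.5 ± 19.5 TPM in CAC, against 34.6 ± 4.00 TPM in NCAC and 38.1 ± 3.14 TPM in Con (SD, n = 5 each), and its log2 change against Con was 0.68 (limma adjusted p = 8.82e-05), or 0.36 after rescaling (adjusted p = 0.0212). Hspa13, an Hsp70 of microsomes, passed at 4 weeks with 0.43 and at 6 weeks with 0.44, and its 0.19 at 8 weeks did not pass. Dnajb14, a close relative of Dnajb12, had a change of 0.05 at 8 weeks that did not pass.

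Among the J proteins of the nucleus, the spliceosome and the ribosome, 4 of 5 rose at 6 and at 8 weeks against Con. Their median log2 change was 0.54 at 8 weeks, and 51.8% and 65.3% of all genes rose at 6 and 8 weeks. Dnajc2 and Dnajc8 also rose after rescaling at 8 weeks, while 21.8% of all genes rose on that scale. Dnajc8, a spliceosome component, had a lowest, median and highest value of 39.3, 46.9 and 60.9 TPM in CAC and 30.2, 35.1, 31.6, 29.1 and 30.7 TPM in Con at 8 weeks. Dnajc2, which works with Hspa14 at the ribosome, had a lowest, median and highest value of 10.9, 14.2 and 19.2 TPM in CAC and 8.97, 9.74, 8.47, 8.59 and 8.73 TPM in Con. In both, every CAC library of 8 weeks was above every Con library. The log2 changes were 0.59 for Dnajc8 (limma adjusted p = 1.66e-07) and 0.66 for Dnajc2 (adjusted p = 5.64e-07), or 0.18 and 0.27 after rescaling. Both were also called at 4 weeks, with log2 changes of 0.26 and 0.33, where the adjusted p without CAC replicate 2 was 0.229 for Dnajc8 and 0.226 for Dnajc2. Dnajc21 and Dnajc9, a ribosome assembly factor and a histone chaperone, rose by 0.54 and 0.44 at 8 weeks, or 0.13 and 0.04 after rescaling, and Dnajc17 had a change of 0.21 that did not pass.

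Dnajc13, a J protein of endosomes that recruits Hspa8 to release clathrin, was higher in CAC in every week, and it was the only member called at 2 weeks. The gene lies at 104151282-104262930 of chromosome 9, minus strand. At 2 weeks it had 9.79, 10.7, 12.4, 11.4 and 9.51 TPM in CAC, 7.42, 8.30, 7.55, 7.09 and 6.70 TPM in NCAC and 7.60, 7.97, 7.76, 8.50 and 8.43 TPM in Con. At 4 weeks the values were 11.4, 14.9, 13.4, 13.3 and 10.1 TPM in CAC, 8.00, 8.38, 7.10, 7.90 and 7.22 TPM in NCAC and 7.12, 8.00, 7.06, 7.77 and 7.37 TPM in Con. No CAC library overlapped the NCAC or Con libraries of its week, at 2 and 4 weeks or later.

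At 6 weeks Dnajc13 had 15.8, 12, 13.1, 12.4 and 11.8 TPM in CAC, 8.26, 8.70, 9.38, 6.68 and 7.58 TPM in NCAC and 10.3, 9.30, 10.4, 8.08 and 9.26 TPM in Con. At 8 weeks it had a lowest, median and highest value of 13.3, 14 and 18.1 TPM in CAC, 7.28, 7.98, 7.91, 8.88 and 9.74 TPM in NCAC and 8.81, 9.11, 8.49, 7.96 and 8.08 TPM in Con. The log2 changes against Con were 0.37, 0.68, 0.42 and 0.74 at 2, 4, 6 and 8 weeks, with limma adjusted p of 0.0421, 5.13e-07, 0.00018 and 6.40e-10. After rescaling they were 0.28, 0.50, 0.12 and 0.35, and that of 6 weeks did not pass (adjusted p = 0.184). At 2 weeks the call against Con rested on narrow ground: it was lost in 8 of 10 refits without a library, with an adjusted p of up to 0.209. Against NCAC the log2 change at 2 weeks was 0.48 (adjusted p = 0.00136) and was called in all 10 refits. Dnajc5, a J protein of synaptic and secretory vesicles, rose by 0.55 at 8 weeks, and by 0.14 after rescaling.

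**Figure D3:**
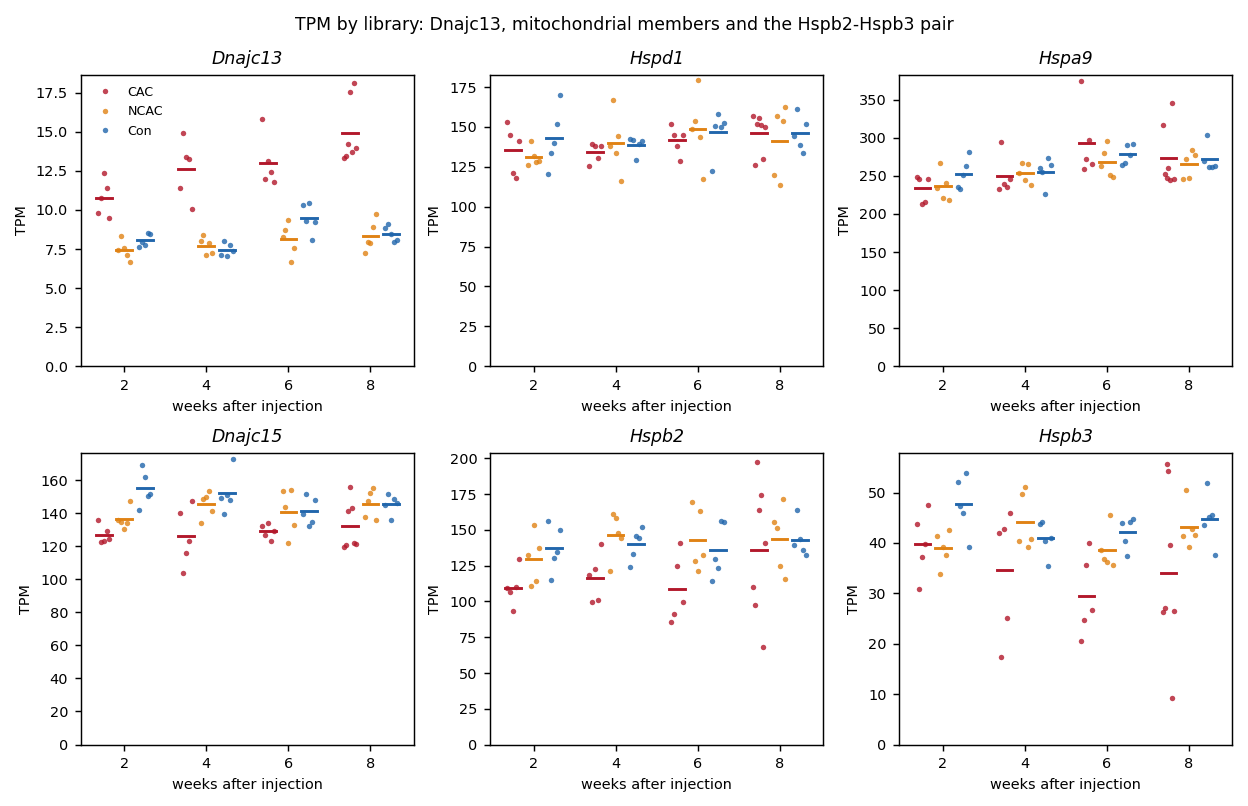
TPM of Dnajc13, Hspd1, Hspa9, Dnajc15, Hspb2 and Hspb3 in every library, by week with CAC left of NCAC and Con, on linear axes set for each panel; points are libraries and short lines are group means. Dnajc13 is higher in CAC without overlap in all 4 weeks, Hspd1 and Hspa9 of the 3 arms overlap at 8 weeks, and Hspb3 reaches 9.28 TPM in 1 CAC library of 8 weeks.

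The small heat shock proteins split. Of 6 tested, 3 rose and 1 fell against Con at 6 and at 8 weeks, and none passed at 2 or 4 weeks. Of all genes, 51.8% and 65.3% rose at 6 and 8 weeks, and 5.41% and 5.55% fell. After rescaling Hspb1 and Hspb7 rose and 3 fell at 8 weeks, with a median of -0.28, while 21.8% of all genes rose and 22.9% fell. These are among the most abundant members in muscle: over the 20 Con libraries Hspb6 averaged 573 ± 89.4 TPM, Hspb7 327 ± 93.6 TPM, Hspb8 298 ± 25.6 TPM, Hspb1 225 ± 30.7 TPM and Hspb2 139 ± 14.1 TPM (SD).

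Hspb7, a cardiac and skeletal muscle protein that binds filamin, had the largest log2 change of the 60 members in CAC against Con. It lies at 141420779-141425311 of chromosome 4, plus strand. At 6 weeks it had 1405, 672, 637, 2045 and 611 TPM in CAC, 604, 355, 387, 229 and 350.3 TPM in NCAC and 224, 241, 232, 533 and 386 TPM in Con, and all 5 CAC libraries were above the NCAC and Con libraries. At 8 weeks it had a lowest, median and highest value of 374, 731 and 1686 TPM in CAC, 767, 475, 259.9, 421 and 276 TPM in NCAC and 286, 432, 376, 367 and 274 TPM in Con, where the ranges overlapped. The change against Con was 3.10-fold at 6 weeks, a log2 change of 1.63 (SE 0.32, limma adjusted p = 6.61e-05), and 1.11 at 8 weeks (adjusted p = 0.000849). After rescaling these were 1.31 and 0.69 (adjusted p = 0.00064 and 0.0351). Against NCAC the log2 change was 1.36 at 6 weeks (adjusted p = 0.000227) and 0.86 at 8 weeks (adjusted p = 0.00766), and that of 8 weeks was 0.42 after rescaling (adjusted p = 0.208).

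Hspb1, the mouse Hsp25 that protects actin and intermediate filaments, is at 135887919-135889563 of chromosome 5, plus strand. It had a lowest, median and highest value of 334, 395 and 473 TPM in CAC at 8 weeks, 324, 264, 183, 220.0 and 248 TPM in NCAC and 178, 269.7, 226, 184 and 199 TPM in Con. All 7 CAC libraries were above all NCAC and Con libraries. The change against Con was 1.91-fold, a log2 change of 0.93 (SE 0.18, limma adjusted p = 1.41e-05) and 0.51 after rescaling (adjusted p = 0.00881). At 6 weeks CAC had 443, 352, 261, 886 and 245 TPM, against 302, 225, 178, 196 and 199 TPM in NCAC and 212, 206, 233, 243 and 265 TPM in Con. The log2 change of 0.75 against Con (adjusted p = 0.00123) was 0.45 without CAC replicate 4, the library at 886 TPM, and was still called. A pseudogene of Hspb1, Hsp25-ps1, was present in every library at up to 7.68 TPM.

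Hspb3, a muscle small heat shock protein that pairs with Hspb2, had the largest log2 fall of the members called in CAC against Con at 8 weeks. It is at 113662896-113663676 of chromosome 13, minus strand. At 8 weeks it had a lowest, median and highest value of 9.28, 27.2 and 55.6 TPM in CAC, 41.3, 50.5, 39.2, 42.7 and 41.6 TPM in NCAC and 43.5, 51.9, 45.0, 45.5 and 37.6 TPM in Con. Of the CAC libraries 2 were above all Con libraries, so the fall was not shared by the whole group. The log2 change was -0.55 against Con (limma adjusted p = 0.0196) and -0.96 after rescaling (adjusted p = 0.000777). Without CAC replicate 6, the library at 9.28 TPM, it was -0.29 (adjusted p = 0.130), and without Con replicate 2 the adjusted p was 0.0502. At 6 weeks CAC had 20.5, 24.8, 35.5, 40.0 and 26.8 TPM, against 38.7, 36.9, 36.2, 45.5 and 35.7 TPM in NCAC and 43.9, 40.4, 37.4, 44.2 and 44.8 TPM in Con, with a log2 change of -0.54 (adjusted p = 0.0441) that was lost in 7 of 10 refits without a library, with an adjusted p of up to 0.149.

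Hspb2 itself, which overlaps Cryab on the other strand at 50751078-50752354 of chromosome 9, averaged 136 ± 46.3 TPM in CAC at 8 weeks and 143 ± 12.4 TPM in Con (SD, n = 7 and 5). Its log2 change of -0.15 did not pass (limma adjusted p = 0.371) and was -0.57 after rescaling (adjusted p = 0.00575). At 6 weeks it had 85.8, 91.6, 125, 141 and 99.7 TPM in CAC and 169.9, 128, 122, 163 and 132 TPM in NCAC, with 3 CAC libraries below all of NCAC. Against NCAC the log2 change was -0.41 (adjusted p = 0.0241), and 4 of 10 refits without a library lost it. Hspb6, a small heat shock protein of heart and skeletal muscle, rose by 0.33 against Con at 8 weeks (limma adjusted p = 0.0231), or -0.09 after rescaling. Against NCAC, Hspb6 passed in no week. Hspb8, which works with Bag3 in the clearance of damaged filamin, had a change of -0.05 that did not pass, and Cryab passed at 6 weeks with 0.60 and not at 8 weeks with 0.19.

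Of the 8 mitochondrial chaperones and J proteins, none passed at 2 weeks, 1 fell at 4 weeks, 1 rose at 6 weeks, and 2 rose and 1 fell at 8 weeks against Con, with median log2 changes of -0.10, -0.07, -0.01 and -0.00. Of all genes, 51.8% and 65.3% rose at 6 and 8 weeks, and 5.41% and 5.55% fell. After rescaling, 5 of the 8 members fell at 4 weeks and 6 at 6 and at 8 weeks, while 7.28%, 17.2% and 22.9% of all genes fell. None of the 8 rose in any of these weeks, while 7.64%, 14.2% and 21.8% of all genes rose at 4, 6 and 8 weeks. The medians of the 8 members were -0.20, -0.27, -0.31 and -0.41 over the 4 weeks. Against NCAC, 3, 7 and 7 fell after rescaling at 4, 6 and 8 weeks, while 4.85%, 22% and 23.1% of all genes fell.

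Hspd1, at 55077835-55088243 of chromosome 1, minus strand, had a lowest, median and highest value of 126, 151 and 157 TPM in CAC at 8 weeks, 119.7, 157, 114, 154 and 162 TPM in NCAC and 145, 161, 138, 134 and 152 TPM in Con. The ranges overlapped throughout. The 95% interval of its log2 change against Con was -0.18 to 0.18 (limma adjusted p = 0.993), and the change was -0.42 after rescaling (adjusted p = 0.000293). Hspe1, its neighbour at 55088132-55091307 on the plus strand, averaged 73.7 ± 7.26 TPM in CAC and 61.0 ± 6.34 TPM in Con at 8 weeks (SD, n = 7 and 5). Its log2 change was 0.27 (adjusted p = 0.00438) and -0.15 after rescaling (adjusted p = 0.106), so the pair that shares a promoter stretch was called differently in the deposited values. At 6 weeks the call of Hspe1 was lost without CAC replicate 1, with a log2 change of 0.10 (adjusted p = 0.276), and without Con replicate 1. The difference between the changes of the 2 genes was not tested.

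Hspa9, the Hsp70 of the mitochondrial matrix and motor of protein import, had a lowest, median and highest value of 244, 253 and 345 TPM in CAC at 8 weeks, 245, 272, 247, 284 and 277 TPM in NCAC and 270.0, 303, 262, 261 and 263 TPM in Con. All 3 groups overlapped, and the 95% interval of the log2 change against Con was -0.16 to 0.15, with -0.42 after rescaling (limma adjusted p = 8.30e-06). Dnajc15, a J protein of the import motor, had a lowest, median and highest value of 119, 122 and 156 TPM in CAC at 8 weeks, 138, 147, 152, 155 and 136 TPM in NCAC and 145, 151, 136, 149 and 146 TPM in Con. Its log2 change was -0.14 against Con at 8 weeks (adjusted p = 0.0498) and -0.28 at 4 weeks (adjusted p = 0.00514), or -0.56 and -0.47 after rescaling. The call of 8 weeks was lost in 8 of 12 refits without a library, and that of 4 weeks without CAC replicate 2 (adjusted p = 0.0647). Dnajc19, Dnaja3 and Dnajc11, which act in import, folding and cristae, had changes of -0.12, 0.04 and -0.02 that did not pass, and -0.52, -0.37 and -0.40 after rescaling that did. Dnajc30, a mitochondrial J protein tied to respiration, rose by 0.22 (limma adjusted p = 0.0177), or -0.18 after rescaling.

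The other 9 tested members were mixed. Dnajc7 and Dnajc24, a partner of Hsp70 and Hsp90 and an enzyme of diphthamide synthesis, rose by 0.29 and 0.31 at 8 weeks against Con, and Hspbap1 rose by 0.41. After rescaling these were -0.12, -0.04 and 0.16, none of which passed. Hspbp1, which removes nucleotide from Hsp70, had a change of -0.04 that did not pass and -0.44 after rescaling that did (limma adjusted p = 0.000442). Dnajc12, Dnajc27, Dnajc28, Dnajc4 and Hspb11, an intraflagellar transport subunit, had changes of 0.01 to 0.19 that did not pass.

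**Figure D4:**
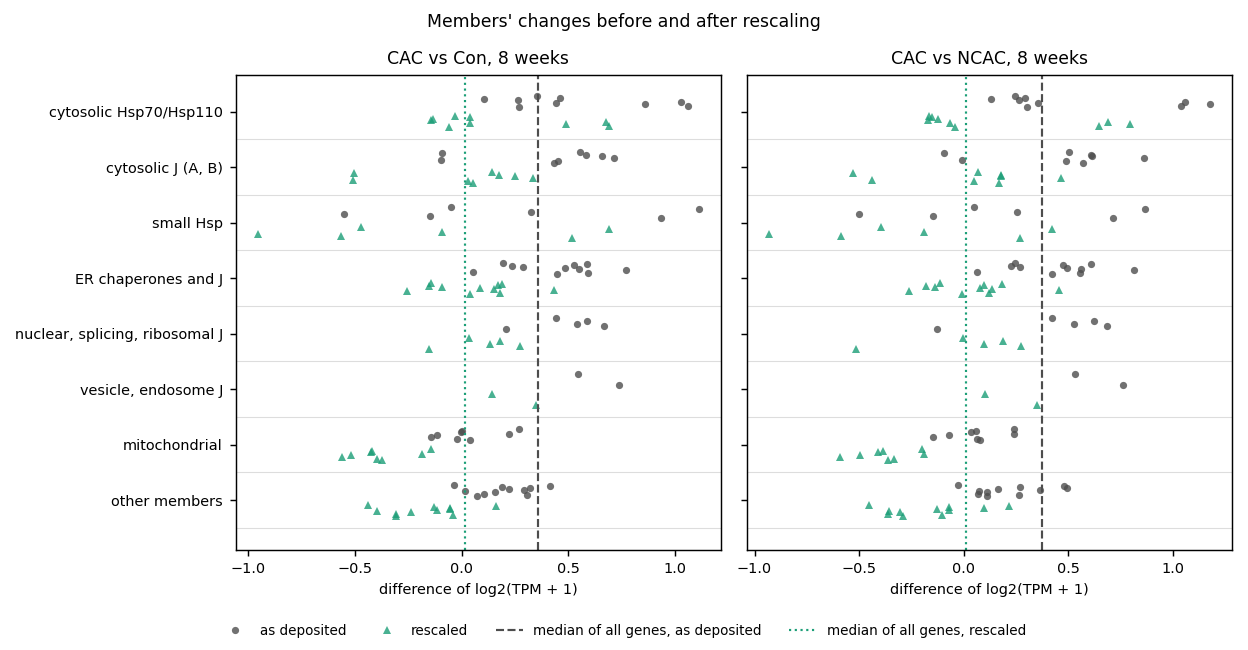
Log2 changes of the 60 tested members by role in CAC against Con (left) and CAC against NCAC (right) at 8 weeks. Circles are as deposited and triangles are after rescaling. Dashed and dotted lines mark the median of all genes on each scale, 0.36 and 0.01 against Con. Against Con, the circles of the mitochondrial role lie left of the dashed line and its triangles left of the dotted one. In the same panel Hspa1a, Hspa2, Hspb1 and Hspb7 lie right of these lines on both scales.

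The size of the CAC change differed between weeks for 8 of the 60 members (13.3%) in a limma F test of the interaction of arm and week, against 12.1% of all genes tested. They were Dnajc1 (adjusted p = 0.0230), Dnajc25 (0.0262), Dnajb2 (0.0272), Dnajc8 (0.0287), Dnajc2 (0.0386), Hspe1 (0.0401), Dnajc5 (0.0423) and Hspb1 (0.0452). The count was unsteady: leaving out single libraries gave 1 to 19 members, 1 without Con replicate 4 of 8 weeks and 19 without CAC replicate 2 of 4 weeks or CAC replicate 3 of 8 weeks, and 17 of 42 such refits moved it by over 1.5 times. The count was 0 after rescaling, and 0 when the CAC and Con libraries were fitted without NCAC.

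Muscle of mice with the non-cachectic tumour gave no call. In limma, 0 of 60 members and 0 of 12364 genes (0%) passed in NCAC against Con in any week, on either scale. At an unadjusted p under 0.05 there were 4, 0, 6 and 1 members at 2, 4, 6 and 8 weeks (6.67%, 0%, 10% and 1.67%), against 3.81%, 1.81%, 7.35% and 1.12% of all genes. The lowest adjusted p of a member was 0.669, shared by Dnajc7, Dnajc9, Dnajc13 and Hspa1b at 6 weeks. The log2 changes reached from -0.67 in Hspa1b at 6 weeks to 0.34 in Dnajc17 at 8 weeks. The bounds of the unadjusted 95% intervals lay a median of 0.22 from the estimate. Changes beyond that distance were not called either, because a call needed a low p after adjustment over all genes. Dnajc7 at 6 weeks changed by -0.25 (limma, unadjusted p = 0.00698) and had an adjusted p of 0.669.

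Related genes outside the rule are given for CAC against Con at 8 weeks, where 65.3% of all genes rose and 5.55% fell, or 21.8% and 22.9% after rescaling. All 4 genes of the heat shock factor list rose. They were the factors Hsf1, Hsf2 and Hsf4, and Hsbp1, which encodes a binding protein of the factor and is no factor itself. Hsf1 averaged 46.2 ± 11.1 TPM in CAC and, in Con, 28.8 ± 3.44 TPM (SD, n = 7 and 5), a log2 change of 0.64 (limma adjusted p = 1.93e-05). Hsf4 changed by 0.72, but none of the 4 genes passed after rescaling. Of the Hsp90 family 3 rose and 1 fell, and 1 rose and 1 fell after rescaling. Hsp90ab1, the constitutive cytosolic Hsp90, averaged 1079.9 ± 289 TPM in CAC and 655 ± 40.0 TPM in Con and rose by 0.68, and Trap1, the Hsp90 of mitochondria, averaged 145 ± 10.6 TPM in CAC and 159.9 ± 6.10 TPM in Con and fell by 0.14 (adjusted p = 0.0105), or 0.56 after rescaling.

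Of 23 co-chaperones of Hsp70 and Hsp90, 19 rose and none fell, with a median of 0.36, and 3 rose and 5 fell after rescaling. Fkbp5, an Hsp90 partner in steroid receptor complexes and a glucocorticoid target, stood apart with 107 ± 57.7 TPM in CAC and, in Con, 9.17 ± 4.20 TPM (SD, n = 7 and 5), a log2 change of 3.13 (limma adjusted p = 2.42e-05) and 2.73 after rescaling. Of the TRiC chaperonin 7 of 8 subunits rose, and of prefoldin 4 of 6. After rescaling 1 TRiC subunit rose and 3 fell, and no prefoldin subunit rose and 2 fell. Of 8 mitochondrial partners and proteases 5 rose, and after rescaling none rose and 4 fell. Of 8 other Hsf1 target genes 6 rose, and 1 rose and 1 fell after rescaling. The polyubiquitin gene Ubb, one of these, averaged 2443 ± 1178 TPM in CAC and 909 ± 400.1 TPM in Con, with a log2 change of 1.41 (adjusted p = 7.82e-05).

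**Figure D5:**
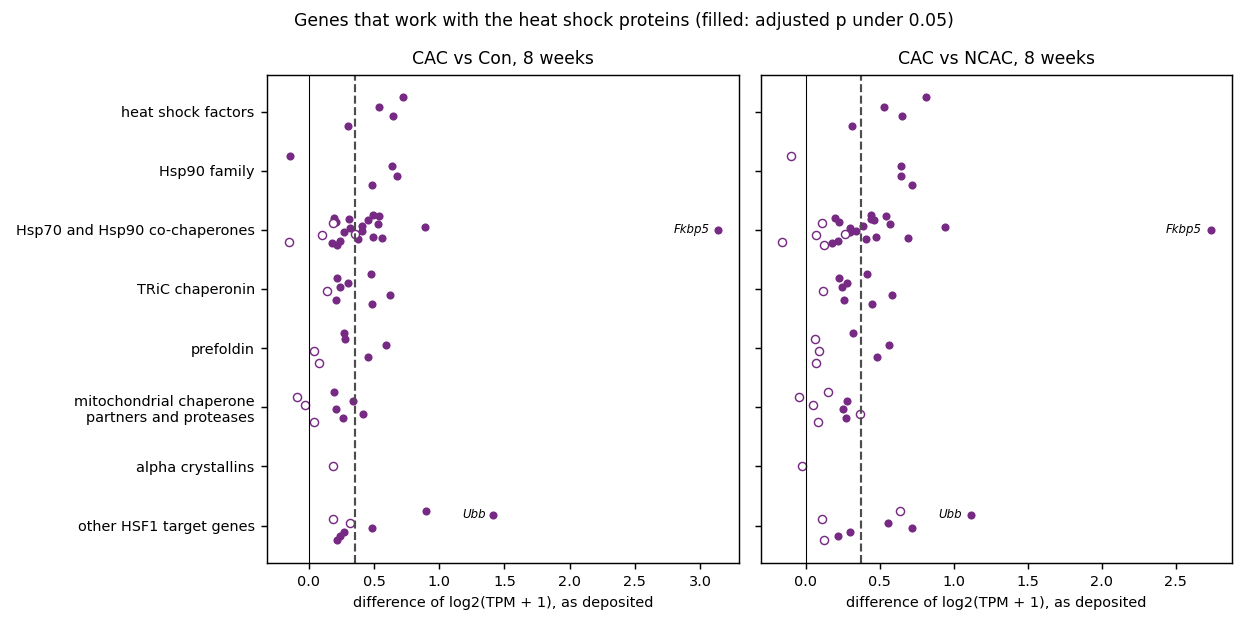
Log2 changes of related genes outside the rule, by list, in CAC against Con (left) and CAC against NCAC (right) at 8 weeks. Filled points have an adjusted p under 0.05 in limma, and the dashed line is the median of all genes, 0.36 against Con. Against Con, Fkbp5 at 3.13 and Ubb at 1.41 lie far to the right of the other genes.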

How the data were processed

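The deposited table holds TPM per gene symbol for 62 gastrocnemius libraries, scaled by the authors to the same sum in every library. Libraries were prepared with a stranded mRNA kit, per the labels' protocols, and the genome build was mm10, per the submitters' processing notes. How reads were aligned and counted, and on which annotation, is not given in the sources used here. All columns of the table were used, with 0 left over.

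TPM values were taken to log2(TPM + 1). Genes with at least 1 TPM in at least 5 libraries were kept, 12364 of 47643. A model with 1 mean for each of the 12 groups was fitted to all libraries at once with limma 3.58.1 in R 4.3.3, with a variance trend, two-sided tests and Benjamini-Hochberg adjustment over all genes tested at a threshold of 0.05, and was tested on simulated data. The fold changes are on the TPM + 1 scale and understate the change of low genes. Alternative settings were no filter on low values, a pseudocount of 0.1, rescaling by median ratios, the compared groups alone, the replicate number as a block and leaving out each library in turn.

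The members and the gene lists were chosen with earlier results of these data known. Values are given for 8 members chosen by name, for the 6 with the largest rise and the 6 with the largest fall among called members at 8 weeks, for the 4 of lowest p in the test over weeks, and for up to 2 in NCAC against Con, of which there were none. These values are single libraries, a lowest, median and highest value, or a mean and SD, and not every group is given. Only Hspb3 and Dnajc15 were called as falling at 8 weeks. Dnajc13, Dnajb12, Dnajc2, Hspa9, Hspe1 and Hspb2 were chosen after their values were seen. Gene positions are from GENCODE M21, and promoters from RefSeq.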

Additional observations from a re-analysis of the deposited data

Results flagged for a closer look

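Of 264 sets of 1 named member in 1 group, 21 held a library far from the others of its group by Dixon's test, which by chance picks about 1 in 20 sets. CAC replicate 2 at 4 weeks accounted for 6 of them. Its value was 4.84 TPM for Dnajc1 (others 2.65 to 3.05), 6.58 TPM for Dnajc25 (others 4.29 to 4.88), 55.6 TPM for Dnajb2 (others 30.7 to 35.3), 44.5 TPM for Dnajc8 (others 33.0 to 35.4), 66.6 TPM for Dnajb12 (others 41.3 to 48.4) and 294 TPM for Hspa9 (others 233 to 246). In the other CAC groups, Hspb7 reached 1686 TPM in replicate 6 at 8 weeks, against 374 to 896 TPM in the others. At 6 weeks replicate 1 had 60.1 TPM of Dnajc8 (others 36.0 to 43.0) and 112 TPM of Hspe1 (others 61.2 to 73.8), and at 2 weeks replicate 2 had 348 TPM of Hspa8 (others 445 to 469).

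In NCAC libraries, Hspa1b reached 8.58 TPM at 2 weeks (others 3.23 to 4.31), Hspa8 reached 494 TPM at 2 weeks (others 384 to 394) and Dnajc25 reached 4.60 TPM at 2 weeks (others 4.16 to 4.27). At 8 weeks an NCAC library had 9.53 TPM of Dnajc2 (others 8.40 to 8.72) and another had 55.5 TPM of Hspe1 (others 62.9 to 64.9).

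In Con libraries, Dnajc2 was at 7.86 TPM in 1 library of 2 weeks (others 8.38 to 8.58). At 4 weeks Hspa8 was at 382 TPM (others 465 to 489.6) and Hspd1 at 129 TPM (others 139 to 143). At 6 weeks Hspd1 was at 123 TPM (others 150.2 to 158) and Dnaja1 at 12.1 TPM (others 7.11 to 7.96), and at 8 weeks Hspa9 was at 303 TPM (others 261 to 269.99).

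The CAC minus Con difference changed between weeks in the limma F test for 7 of the named members, with adjusted p of 0.0230 for Dnajc1, 0.0262 for Dnajc25, 0.0272 for Dnajb2, 0.0287 for Dnajc8, 0.0386 for Dnajc2, 0.0401 for Hspe1 and 0.0452 for Hspb1.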

How the results depend on the processing

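Against Con, 1 member was called at 2 weeks and 0 without the filter or with the compared groups fitted alone, 10 at 4 weeks and 4 with the compared groups alone, and 36 at 6 weeks and 17 after median-ratio rescaling. Against NCAC at 4 weeks, 9 were called, 4 without the filter and 1 with the compared groups alone. The test over weeks gave 8 members, 4 without the filter, and 0 after rescaling, with the replicate block, or with only the compared arms fitted. The totals of 8 weeks stayed within 1.5 times in every alternative run, but their split did not: after rescaling, 38 up and 2 down became 11 and 18 against Con, and 36 up and 2 down became 9 and 21 against NCAC. Leaving out each library in turn gave, against Con, 0 to 2, 3 to 16, 24 to 36 and 34 to 41 members at 2, 4, 6 and 8 weeks, of which the count of 2 weeks moved in 9 of 10 refits. Against NCAC it gave 1 to 1, 2 to 14, 30 to 38 and 35 to 40 members. It gave 0 to 0 for NCAC against Con in each week, 1 to 19 for the test over weeks of CAC, and 0 to 0 for that of NCAC.

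Rescaling reversed 8 called changes of named members. In CAC against Con these were Hspe1 at -0.079 at 6 weeks and -0.15 at 8 weeks, and Hsph1 at -0.033 at 8 weeks. In CAC against NCAC they were Hspa8 at -0.052 at 6 weeks and -0.15 at 8 weeks, Dnaja1 at -0.041 at 6 weeks, and Hspe1 at -0.16 at 6 weeks and -0.20 at 8 weeks. Of the 82 called changes of named members, 34 others missed the threshold after rescaling, 14 without the filter, 21 with the compared groups alone and 1 with a pseudocount of 0.1. The cause was not tested.

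The replicate numbers do not pair the libraries: same-numbered libraries of 2 arms correlated at -0.299 to 0.295 in their deviations from the group means, with 16 of 60 over 0.1. With the replicate block, 1, 12, 37 and 34 members were called in CAC against Con and 1, 11, 36 and 35 in CAC against NCAC at 2, 4, 6 and 8 weeks, 0 in NCAC against Con in each week, and 7 of the 82 named changes missed the threshold. The depth is an estimate, and members near 1 TPM are the least precise.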
